A study of Mus musculus with 2 samples.

Results

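The mitochondrial ribosomal proteins were studied in total RNA from the hearts of 2 adult male B6CASTF1/J mice, which are first-generation hybrids of a C57BL/6J and a CAST parent. They were taken as every gene whose symbol starts with Mrpl or Mrps followed by a digit and that has at least 1 transcript annotated as protein_coding. This gave 78 genes of 55536 mouse genes, or of 22015 protein-coding genes of the nuclear genome. A further 5 genes with such a symbol had no protein_coding transcript and were left out, among them the pseudogene Mrpl23-ps1. Both mice were 8 to 10 months old, and the labels give no treatment. Each gave 1 library from 300 ng of RNA, with ribosomal RNA reduced, strand kept and ERCC spike-in RNA added. Replicate 1 is animal 2 of the labels and replicate 2 is animal 4, although both carry the same donor entry. There is 1 group, so no conditions were compared, and no p-value is given because an exact test over 2 libraries cannot reach 0.05.

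Mitochondria translate the few mRNAs of their own genome, all of which encode core subunits of the respiratory chain and ATP synthase, on a ribosome of their own. Its RNA comes from mitochondrial DNA, while all of its proteins are encoded in the nucleus, made in the cytosol and imported. About the same plan as in bacteria is kept, but many proteins have no bacterial counterpart, and several human members are known as disease genes in which the heart is affected. In heart muscle, whose cells are packed with mitochondria, this ribosome serves the supply of ATP. In bulk RNA, fewer cells of a type and less RNA per cell cannot be told apart. The defining markers of heart muscle were present, with 7 of 7 between 358 and 8307 TPM over both libraries.

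Expression is given as TPM, a transcript abundance that corrects for transcript length and can therefore be compared between genes. All mouse genes together held 42.05 M expected counts in replicate 1 and 39.98 M in replicate 2. Of these, the 78 members held 89309 and 87739 counts. By TPM, which weights by length, the members held 0.301% and 0.314% of the total. Their median was 29.1 TPM in replicate 1 and 28.9 TPM in replicate 2 (29.0 ± 0.198, SD, n = 2). The middle range between the quartiles was narrow, 19.9 to 46.2 TPM by mean over libraries. In both libraries 75 of the 78 reached 10 TPM, or 96.2%, against 20.4% of all nuclear protein-coding genes, and 6 reached 100 TPM. The exceptions below 10 TPM in at least 1 library were Mrpl23, Mrps30 and Mrps22. Over protein_coding transcripts only, 60 of the 78 reached 10 TPM in both libraries, a count not taken over other genes. In the order of mean level, 65 of 77 neighbours lay within their summed SDs, so single ranks carry little information.

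**Figure D1:**
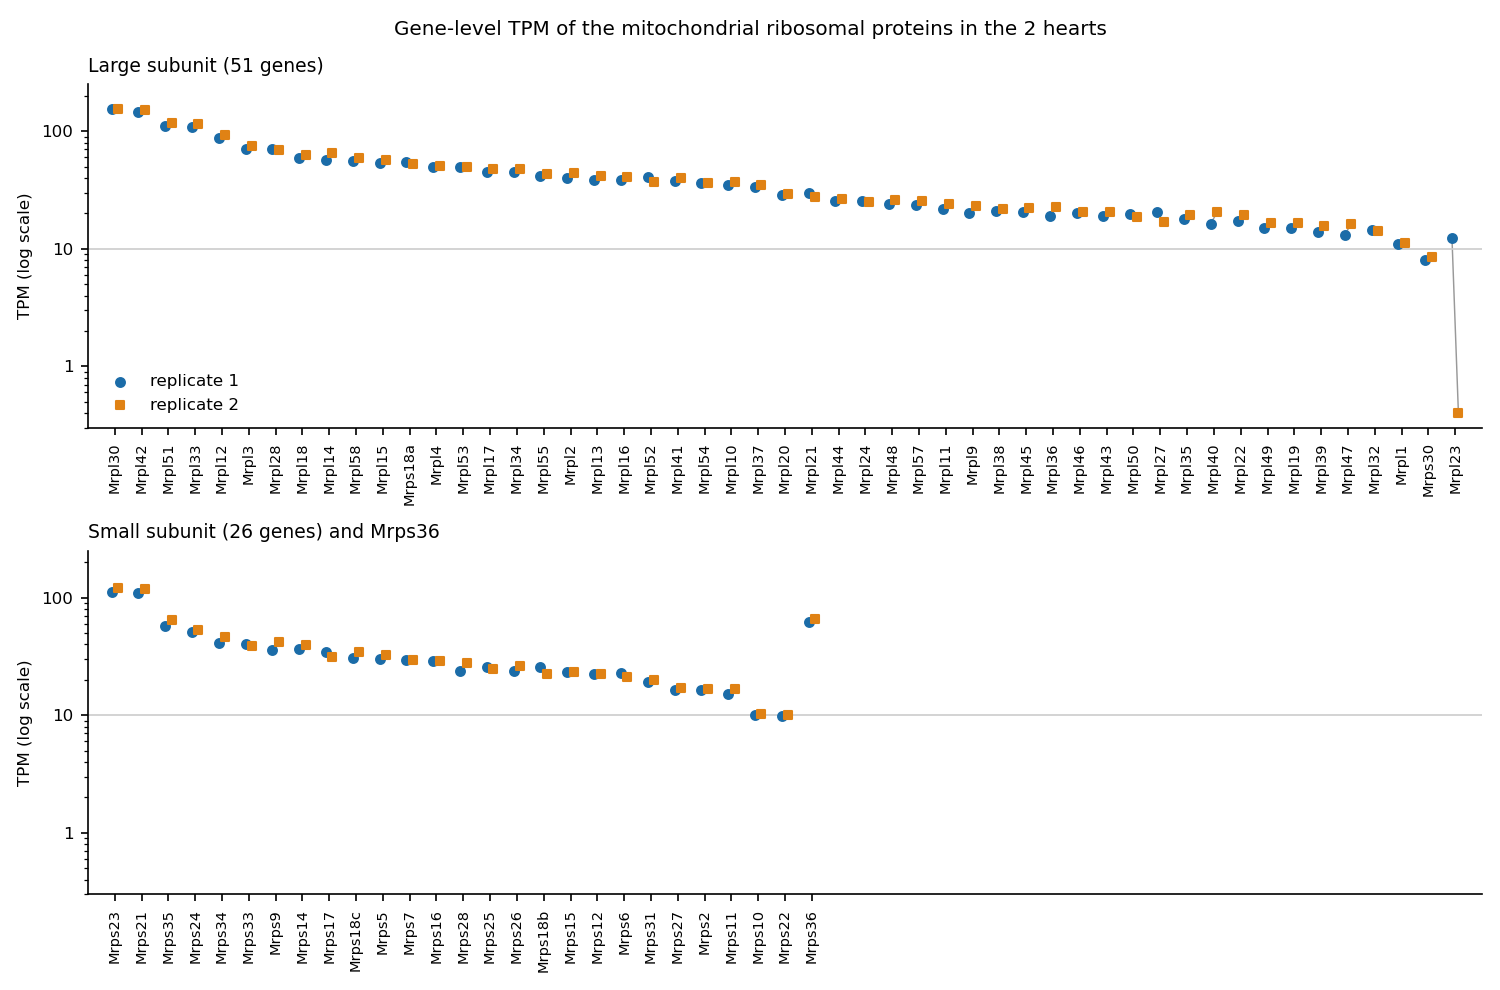
Gene-level TPM on a log axis for every member, with replicate 1 as circles and replicate 2 as squares; the upper panel holds the 51 genes of the large subunit and the lower panel the 26 of the small subunit and Mrps36. The paired points nearly touch for all genes but Mrpl23, which stands at 12.3 TPM in replicate 1 and 0.400 TPM in replicate 2.

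Genes were assigned to subunits by where the protein sits in the mammalian ribosome, not by the letter of the symbol. Mrps30 and Mrps18a are therefore counted with the large subunit. The large subunit, which joins amino acids into the chain, had 51 genes with a median of 29.9 and 29.0 TPM. The small subunit, which reads the mRNA, had 26 genes with a median of 27.5 and 28.2 TPM. The large over the small subunit median gave a log2 ratio of 0.12 in replicate 1 and 0.04 in replicate 2 (0.08 ± 0.06, SD, n = 2), a mean fold of 1.06. The sign was the same in both hearts, but the value depended on the transcripts summed, at 0.22 over protein_coding transcripts only. Genes with a bacterial counterpart (46) had a median of 29.96 and 30.5 TPM, against 25.5 and 26.01 TPM for the mitochondria-specific ones (31). Within the large subunit the gap was wider, with 36.7 and 38.8 TPM for 30 genes with a counterpart against 24.2 and 26.2 TPM for 21 mitochondria-specific ones. Mrps18a and Mrps18b, which descend from bacterial S18 but sit at other places in the ribosome, were counted as mitochondria-specific.

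The highest large subunit gene was Mrpl30 (mm10, as all coordinates here, chr1:37890477-37898535, plus strand), whose protein is the counterpart of bacterial L30, at 153 TPM in replicate 1 and 155 TPM in replicate 2. Mrpl42 (chr10:95480805-95501940, minus strand), which has no bacterial counterpart, followed at 145 and 151 TPM. Mrpl51 stood at 110.0 and 118 TPM, and Mrpl33 at 110 and 115 TPM. These 4 lay above all other large subunit genes in both hearts, by TPM summed over all transcript classes. Mrpl51 had 7.66% and 6.67% of its TPM on protein_coding transcripts, and Mrpl33 67.1% and 69.2%. Over those transcripts alone the order would differ. In the second quantification Mrpl42, at 153 and 148 TPM, was above Mrpl30, at 141 and 130 TPM. Mrpl12, the stalk protein that contacts translation factors and has also been described as binding the mitochondrial RNA polymerase, had 87.5 and 92.8 TPM. Mrpl10, the protein that anchors that stalk, had 35.0 and 37.0 TPM. Several copies of the stalk protein are held per ribosome, as in bacteria. Its mRNA was above that of its anchor in both hearts, but a link between mRNA level and copy number was not tested. Mrpl3, a core protein near the site of peptide bond formation, stood at 70.1 and 75.3 TPM.

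Other large subunit proteins have roles beyond the bacterial plan. Mrpl58, a peptide-releasing factor built into the ribosome, had 55.9 and 59.0 TPM. Mrpl44, which has the fold of a double-stranded RNA nuclease, had 25.5 and 26.7 TPM. Mrpl41, which has no bacterial counterpart, had 37.5 and 40.2 TPM. The low end was formed by Mrps30 at 7.99 and 8.44 TPM, Mrpl1, a protein of the stalk through which tRNAs leave, at 10.9 and 11.3 TPM, and Mrpl32, a zinc-binding protein matured by a mitochondrial protease, at 14.5 and 14.1 TPM. By mean over libraries Mrpl23 was below all of them, at 6.37 TPM. In replicate 1, at 12.3 TPM, it was above Mrps30 and Mrpl1. It is described further on.

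In the small subunit Mrps23 (chr11:88204388-88211507, plus strand) led with 112 TPM in replicate 1 and 122 TPM in replicate 2. Mrps21, the counterpart of bacterial S21, followed with 109 and 118 TPM. No other small subunit gene passed 65 TPM in either heart, so these 2 stood apart by these values. In the second quantification Mrps21, at 115 and 118 TPM, was above Mrps23, at 81.3 and 86.96 TPM. Mrps35 came nearer to Mrps23 there, at 60.4 and 74.95 TPM. Mrps12, a protein of the decoding site, had 22.3 and 22.3 TPM. The low end was Mrps22 (chr9:98588730-98601660, minus strand), a mitochondria-specific protein, at 9.94 and 10.1 TPM, and Mrps10, a protein of the subunit head, at 10.1 and 10.2 TPM.

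Between these ends lay core proteins with bacterial counterparts. In the large subunit Mrpl18, at the central protuberance, had 59.6 TPM in replicate 1 and 63.1 TPM in replicate 2, and Mrpl14, at the face toward the small subunit, 56.8 and 65.6 TPM. Mrpl15 had 53.4 and 56.5 TPM, and Mrpl4, which lines the peptide tunnel, 49.4 and 50.2 TPM. Mrpl2 and Mrpl16, both near the site of peptide bond formation, had 40.2 and 43.8 TPM and 38.4 and 40.5 TPM. Mrpl11, at the base of the stalk, was lower at 21.9 and 24.0 TPM in replicates 1 and 2. Mrpl45, a mitochondria-specific protein at the tunnel exit that helps to tether the ribosome to the inner membrane, had 20.5 and 22.2 TPM. In the small subunit Mrps24, at the entry of the mRNA channel, had 51.4 and 53.3 TPM, and Mrps9, in the head, 36.2 and 42.2 TPM. Mrps7, which starts assembly of the head in bacteria, had 29.3 and 29.5 TPM, and Mrps15, which binds early to the rRNA in bacteria, 23.3 and 23.1 TPM. Mrps34 (41.4 and 46.2 TPM) and Mrps27 (16.5 and 17.1 TPM), an RNA-binding pentatricopeptide repeat protein, have no bacterial counterpart. In each of these 14 genes the replicates lay within 25% of each other. This does not set them apart, since on scaled counts all members but Mrpl23 lay within that limit. At similar depth 8.85% of 6528 nuclear protein-coding genes lay past it.

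Mrps18a, Mrps18b and Mrps18c are related genes that all descend from bacterial S18, and their proteins occupy different places. Mrps18a, in the large subunit, had 54.6 and 53.2 TPM. Mrps18c, at the place of bacterial S18 in the small subunit, had 30.9 and 34.4 TPM, and Mrps18b, at another place in the small subunit, 25.7 and 22.3 TPM. The order was the same in both hearts, with the large subunit member highest. Mrps36 (chr13:100735955-100744659, minus strand) carries a ribosomal symbol, but its protein is an adaptor of the 2-oxoglutarate dehydrogenase complex of the citric acid cycle. It was counted in neither subunit and had 62.4 and 65.8 TPM. The enzyme's subunits were all higher, with Ogdh at 680 and 728 TPM, Dlst at 280 and 313 TPM, and Dld at 133 and 140 TPM.

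Ribosome proteins named by other symbols were at similar levels. Their 5 genes had a median of 38.9 and 40.2 TPM, led by Dap3, a GTP-binding protein of the small subunit, at 53.6 and 60.7 TPM. The lowest was Gadd45gip1 of the large subunit, at 11.6 and 12.4 TPM. The genes that assist the ribosome were lower as groups. The median of the members was 1.43-fold that of 13 mitochondrial translation factors (log2 ratio 0.51 ± 0.00422), 2.93-fold that of 22 mitochondrial aminoacyl-tRNA synthetases (1.55 ± 0.03) and 3.12-fold that of 26 genes of ribosome assembly and rRNA modification (1.64 ± 0.02, SD, n = 2 for each). Single factors were nonetheless high. Tufm, the elongation factor that brings tRNA to the ribosome, had 102 and 111 TPM, and Gfm1, which moves the ribosome along the mRNA, had 77.7 and 82.2 TPM. Among assembly genes the highest was Dhx30, an RNA helicase, at 20.7 and 20.5 TPM, and the lowest was Ybey, an RNA endonuclease, at 1.40 and 1.12 TPM. The highest synthetase was Kars, which serves both the cytosol and the mitochondria, at 37.9 and 37.8 TPM, and the lowest was Pars2 at 1.37 and 1.99 TPM. Of the 21 genes for mitochondrial transcription and RNA processing, over whose median that of the members was 2.42-fold (1.28 ± 0.02), Fastk was highest at 122 and 124 TPM and Mterf1a lowest at 1.09 and 1.06 TPM.

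The members were well below the nuclear genes of the respiratory chain whose partners this ribosome makes. The 76 nuclear subunits of oxidative phosphorylation (OXPHOS) had a median of 432 TPM in replicate 1 and 459 TPM in replicate 2. The members' median was 15.4-fold lower (log2 ratio -3.94 ± 0.07, SD, n = 2). No member reached the OXPHOS median, and 73 of the 76 OXPHOS genes but 6 of the 78 members reached 100 TPM in both hearts. The proteins of the cytosolic ribosome, which translates nearly all other mRNAs, had a median of 167 and 164 TPM over 79 genes. The members' median was 5.71-fold lower than that (log2 ratio -2.51 ± 0.01). On expected counts, where longer transcripts weigh more, these log2 ratios were -2.99 and -1.51. It was 3.52-fold higher than that of nuclear protein-coding genes at 1 TPM or more, whose median was 8.18 and 8.30 TPM. The mitochondrial mRNAs that this ribosome translates had a median of 7671 and 8568 TPM over 13 genes. The mitochondrial ribosomal RNAs mt-Rnr2 and mt-Rnr1 held 20.9% and 19.9% of all TPM together, but in libraries depleted of ribosomal RNA this is no measure of how many ribosomes there were.

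**Figure D2:**
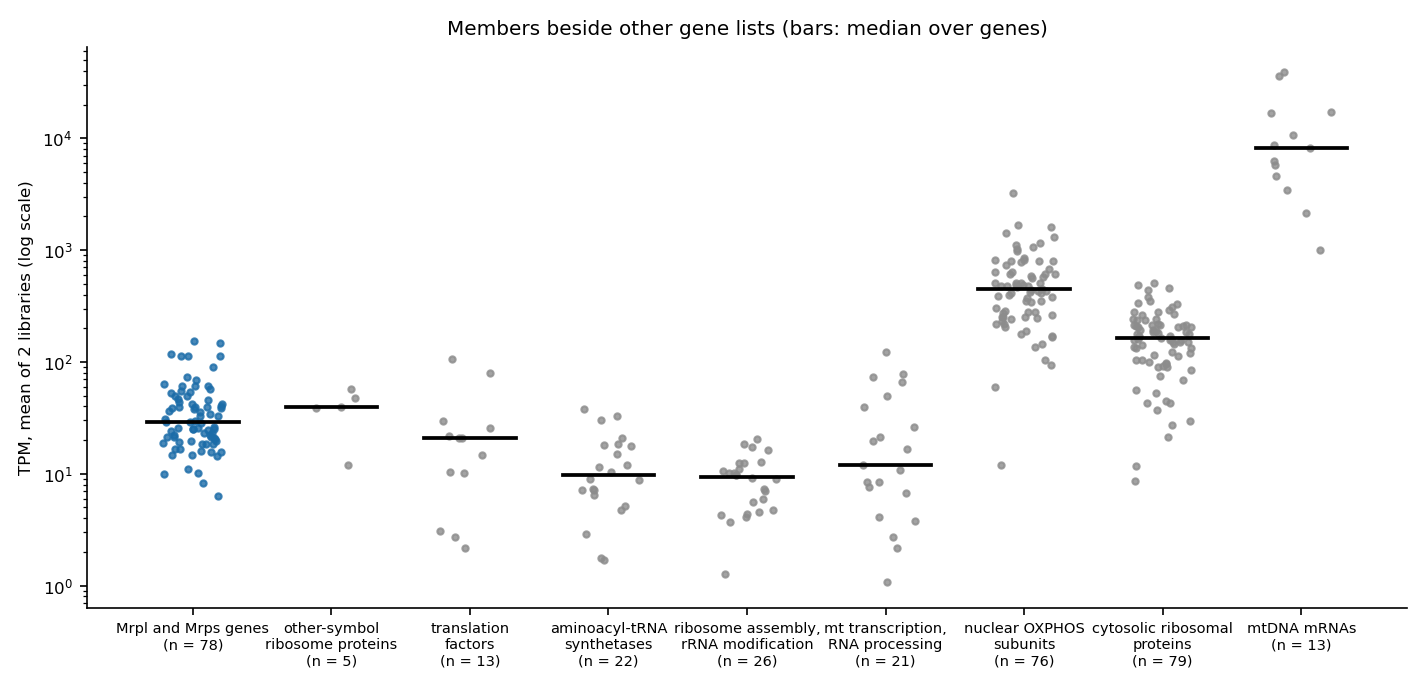
Mean TPM over both libraries on a log axis, 1 point per gene and a bar at the median over genes, for the 78 members and 8 other gene lists. The members lie mostly between 10 and 100 TPM, above the lists that assist the mitochondrial ribosome and below the nuclear OXPHOS subunits and cytosolic ribosomal proteins.

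Between the hearts the members were close to each other. The ratio of replicate 1 over replicate 2 was taken from scaled counts for all 78, each of which had at least 241 summed counts. The median log2 ratio was -0.04, with 25 members above 0 and 53 below, beside a median of -0.01 over 12448 nuclear protein-coding genes, of which 5853 were above 0 and 6587 below. The median absolute log2 ratio was 0.05 for members and 0.12 for nuclear protein-coding genes. Over the 6528 nuclear protein-coding genes within the count range of the members apart from Mrpl23 (668 to 7378 summed counts), that is at similar depth, it was 0.09. On TPM, which is also affected by the share of other RNAs, 60 of the 78 (76.9%) were higher in replicate 2, beside 59.2% of those 6528 genes.

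A gene was called different when the higher library exceeded the lower by at least 25% on scaled counts and the exact counting interval of the ratio, built to miss in 0.1% of cases, left out 1, among genes with 200 or more summed counts. By this rule 1 of 78 members was higher in replicate 1, where 5.14% of 10960 genes were, and 0 were higher in replicate 2, where 3.39% were. With a 2-fold limit it was again 1 and 0 members, against 0.858% and 0.219% of all genes. The 1 member was Mrpl23. Next in size were Mrpl27, a large subunit protein with 466 and 362 counts (ratio 1.24, interval 0.984 to 1.57), and Mrpl40, with 496 and 594 counts (ratio 0.805, interval 0.657 to 0.984). Neither passed the 25% limit. The intervals cover counting error only, and with 1 library per animal the differences have no replicate check.

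Some markers of other cell types differed between these libraries. The 4 hemoglobin genes used as blood markers were all higher in replicate 1, where they summed to 1.16% of TPM, against 0.629% in replicate 2. Of the 2 lung markers, Scgb1a1 had 204 counts in replicate 1 and 0 in replicate 2, and Sftpc had 0 in both. The 4 fast skeletal muscle markers summed to 0.000389% and 0.000422% of TPM. The 4 macrophage markers summed to 0.00265% and 0.00257%, with Adgre1 among them at 512 and 193 counts. The 4 endothelial markers summed to 0.0130% and 0.0129% of TPM, and the 4 fibroblast markers to 0.0143% and 0.0163%. The part of these in the members' ratios was not tested.

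**Figure D3:**
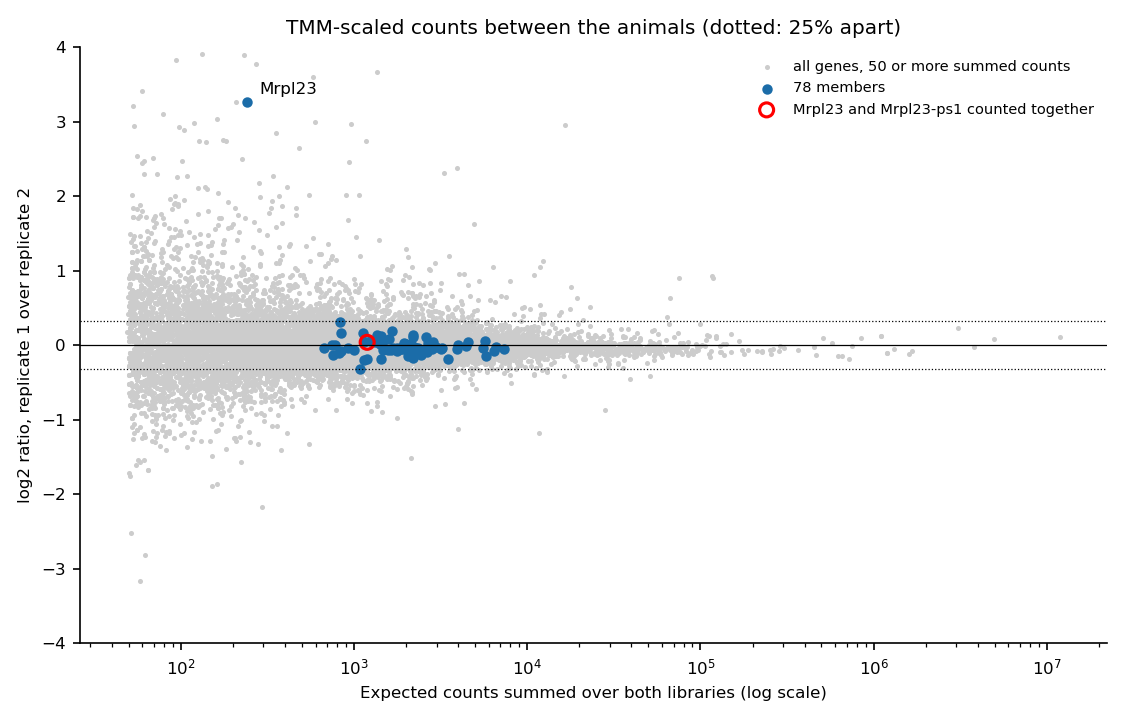
The log2 ratio of replicate 1 over replicate 2 from scaled counts against expected counts summed over both libraries (log axis), with 13571 genes at 50 or more summed counts in grey and the 78 members in blue; 20 genes at 0 in 1 library are not drawn and 14 fall outside the axis. All members but Mrpl23 lie within the dotted lines at a 25% difference, and the open circle, Mrpl23 counted together with Mrpl23-ps1, lies near 0.

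Mrpl23 encodes the large subunit protein that sits at the exit of the peptide tunnel (chr7:142532686-142540747, plus strand). It had 219 expected counts and 12.3 TPM in replicate 1, against 22.1 counts and 0.400 TPM in replicate 2. The ratio was 9.59 (counting interval 4.79 to 22.3). Its processed pseudogene Mrpl23-ps1 (chr2:74591330-74591909, minus strand) had 396 counts and 23.7 TPM in replicate 1, against 555 counts and 35.2 TPM in replicate 2. Where the gene was high the pseudogene was low. Summed, they gave 615 and 577 counts, or 36.0 and 35.6 TPM, with a ratio of 1.03 (interval 0.847 to 1.245), which no longer met the rule. The second quantification deposited for the same libraries gave Mrpl23 39.1 and 36.7 TPM and the pseudogene 0 TPM in both, and Mrpl23 did not meet the rule there either. The level of Mrpl23 and its difference between the hearts are therefore uncertain.

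Most of the sequence of the pseudogene also occurs in transcripts of the gene. The start of the open reading frame of the protein_coding transcript Mrpl23-207 and the matching stretch of Mrpl23-ps1 are given here from the GENCODE M21 transcripts, 5′ to 3′, with the start codon of Mrpl23-207 in capitals:
Mrpl23-207: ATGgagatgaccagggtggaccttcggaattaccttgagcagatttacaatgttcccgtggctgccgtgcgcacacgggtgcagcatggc
Mrpl23-ps1-201: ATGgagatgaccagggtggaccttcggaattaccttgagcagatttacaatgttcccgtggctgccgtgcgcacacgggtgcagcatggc
The 2 stretches of 90 bases had 0 differences. Over the whole alignment 507 bases matched without a mismatch or gap, among them all 306 coding bases of Mrpl23-207. Of the 539 stretches of 31 bases in the pseudogene, 510 (94.6%) also occur in the protein_coding transcript Mrpl23-201. In replicate 1 of the deposited RSEM-layout table, Mrpl23-207 held 207 of the gene's 219 counts. In replicate 2 that transcript had 0, and the counts of the gene lay on the retained_intron forms Mrpl23-205 (17.1) and Mrpl23-203 (5.05). In the second quantification Mrpl23-201, Mrpl23-202 and Mrpl23-207 all had counts in both hearts.

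**Figure D4:**
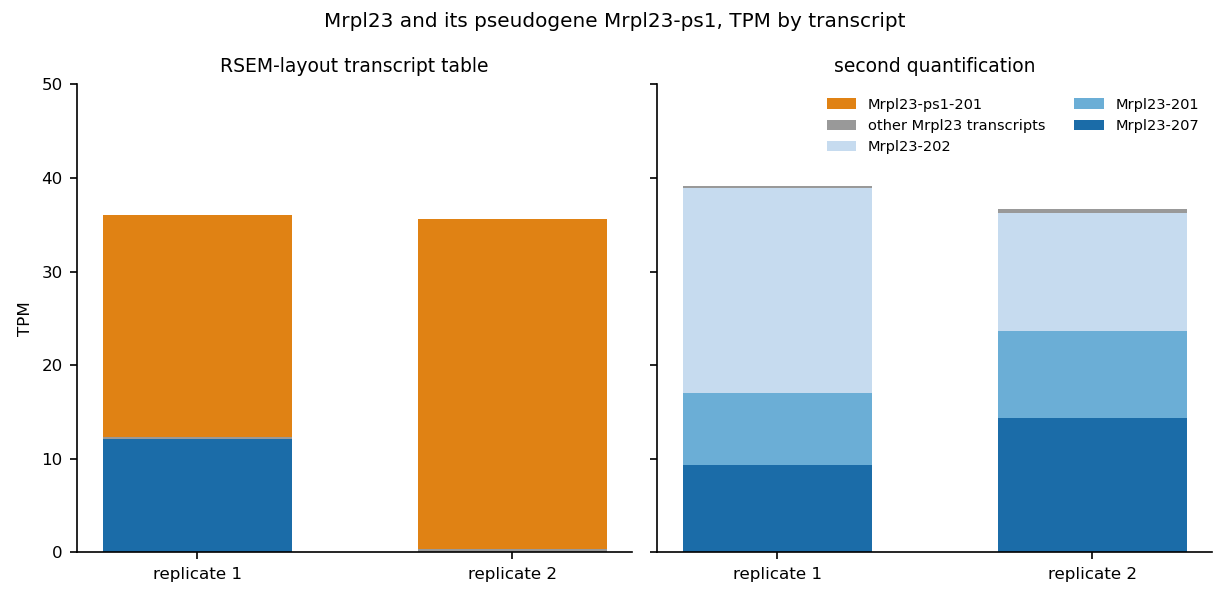
TPM of Mrpl23 transcripts (blue and grey) and of the pseudogene Mrpl23-ps1 (orange), stacked, in replicate 1 and replicate 2 for the RSEM-layout transcript table (left) and the second quantification (right). The stacks sum to 36.0 and 35.6 TPM on the left and 39.1 and 36.7 TPM on the right, while their division differs.

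Other members also share sequence with pseudogenes. In all, 21 members had 26 pseudogenes elsewhere in the genome that share at least 20% of their own 31-base stretches with the member. These held over 5% of the summed TPM for 5 members. After Mrpl23 (82.2%) came Mrps10 (20.8%, pseudogene AC154457.3 at 2.17 and 3.15 TPM), Mrpl48 (19.3%, Mrpl48-ps at 5.51 and 6.53 TPM), Mrps33 (9.82%) and Mrps16 (7.94%). The Mrps33 pseudogene Gm5776 was listed at 8.67 TPM in replicate 1 and 0 TPM in replicate 2, and Mrps33 itself at 40.5 and 39.2 TPM. In the second quantification pseudogenes held over 5% for 2 members, Mrps10 and Mrps33. Sharing with any other gene, overlapping neighbours included, was under 1% of 31-base stretches for 30 members and 10% or more for 18. The counts of pseudogenes and of shared sequence were not taken over other genes, so whether they are usual is not known.

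The deposited quantifications placed most members at close levels. RSEM-layout and second quantification TPM lay within 25% of the lower value for 67 of 78 members (85.9%), about the share over 10741 nuclear protein-coding genes at 1 TPM or more (84.6%). RSEM was higher past that limit for 5 members, which were Mrps23 (117 against 84.1 TPM), Mrpl17 (46.3 against 35.5), Mrpl58 (57.4 against 44.5), Mrpl1 (11.1 against 8.84) and Mrpl45 (21.4 against 17.0). It was lower for 6, and after Mrpl23 (6.37 against 37.9 TPM) these were Mrps12 (22.3 against 36.8), Mrps7 (29.4 against 42.4), Mrps33 (39.8 against 55.6), Mrpl22 (18.4 against 23.2) and Mrpl27 (18.7 against 23.7). Mrpl23 alone among the members differed past 2-fold (1.28%), beside 0.791% of those 10741 genes.

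**Figure D5:**
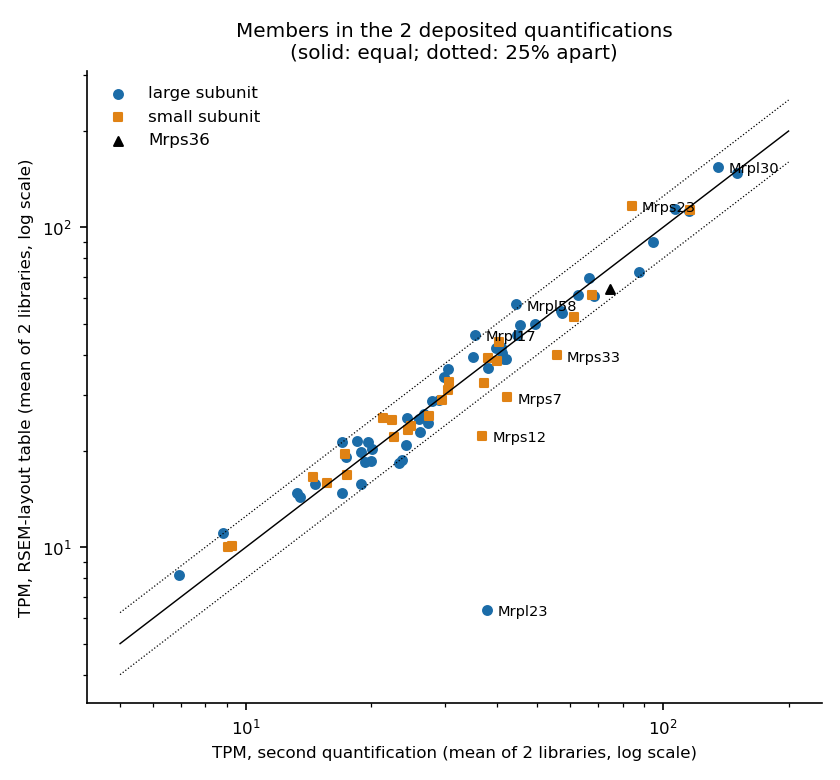
Mean TPM over both libraries in the RSEM-layout table (vertical) and in the second quantification (horizontal), both on log axes, with 1 point per member by subunit. Points lie along the line of equal values and 67 of 78 fall between the dotted lines at a 25% difference, while Mrpl23 stands far below at 6.37 and 37.9 TPM.

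Several members had most of their TPM on transcripts not annotated as protein_coding. The median share on protein_coding transcripts was 97.6% in both replicates, yet 18 of 78 members (23.1%) had under 50% by the mean over libraries, and 16 of them did so in the second quantification as well. Over 4498 nuclear protein-coding genes at 10 TPM or more the figure was 7.94%, while it was 17.1% for OXPHOS subunits and 17.7% for cytosolic ribosomal proteins. From expected counts, which weight long transcripts more, it was 14.1% for members, 10.5% for OXPHOS subunits, 15.2% for cytosolic ribosomal proteins and 3.94% for the genes at 10 TPM or more. On TPM of the second quantification the figures were 21.8%, 19.7%, 22.8% and 9.52% in the same order. Members thus stood above cytosolic ribosomal proteins in the first of these 3 measures and below them in the other two. The lowest share was that of Mrps16, a small subunit protein, with 2.45% and 2.62%. Its leading transcript Mrps16-202, of the class processed_transcript, held 97.6% and 97.4% of the gene. Mrps26 followed with 3.17% and 2.31%, and its leading transcript Mrps26-201 is a retained_intron form. The abundant Mrpl51 had 7.66% and 6.67%, with Mrpl51-202, a processed_transcript, at 61.2% and 63.1% of the gene. Mrpl15, Mrps14, Mrpl57, Mrpl32 and Mrps25 also had under 10% of TPM on average. Shares of single members depended on the measure. By expected counts Mrps16 had 8.40%, Mrps26 11.0%, Mrpl51 27.9%, Mrpl15 13.4%, Mrps14 18.2%, Mrpl57 29.4%, Mrpl32 23.6% and Mrps25 53.8%, and Mrps14 had 23.4% of TPM in the second quantification. Mrpl3, with 13.0% and 8.30%, led with Mrpl3-204, annotated as a target of nonsense_mediated_decay.

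The leading transcript was annotated as protein_coding for 62 members, as nonsense_mediated_decay or processed_transcript for 6 each and as retained_intron for 4. The leading transcript was the same in both quantifications for 65 of 78. It differed for 13, among them highly expressed ones. The leading transcript was not compared over other genes, so whether these counts are usual is not known. For Mrpl30, RSEM led with Mrpl30-207 (55.5% and 59.5%) and the second quantification with Mrpl30-205 (43.8% and 57.5%). For Mrps21 the division was starker, since Mrps21-202 held 77.0% and 81.2% in RSEM and 0% in the second quantification, where Mrps21-201 held 100% and 99.6%. For Mrps23, RSEM led with Mrps23-202 (37.0% and 42.4%), and the second quantification with the longer Mrps23-203 (79.2% and 78.1%). The shares of these 3 genes agreed between hearts more than between quantifications, so their isoform makeup is uncertain. The classes are annotation labels, and whether the transcripts are translated was not measured.

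The members are spread over 17 chromosomes, with most on chromosome 11 (11 genes) and chromosome 17 (8). Many start close to a gene on the other strand. In the GENCODE M21 annotation 18 of 78 (23.1%) had the start of a protein-coding gene within 1000 bases upstream, pointing away, against 6.76% of all nuclear protein-coding genes and 9.85% of those at 10 TPM or more. For 15 more members the opposite gene's start lay within 1000 bases downstream, so that the genes' 5′ ends overlap (19.2%, against 4.06% and 7.02%). Together this made 33 members (42.3%), against 10.8% of all nuclear protein-coding genes and 16.8% of those at 10 TPM or more. OXPHOS subunits were at 39.5% and cytosolic ribosomal proteins at 20.3%.

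In 1 such pair both genes are members. Mrps11 of the small subunit (chr7:78783119-78792989, plus strand) and Mrpl46 of the large subunit (chr7:78775236-78783531, minus strand) overlap by 412 bases at their 5′ ends in GENCODE, and their RefSeq starts are 42 bases apart. Mrps11 had 15.0 and 16.7 TPM, and Mrpl46 20.2 and 20.4 TPM. Levels in other pairs could be far apart. Mrpl30 had 153 and 155 TPM and its neighbour Mitd1, a protein of cell division, 1.31 and 0.790 TPM, with starts 66 bases apart. The opposite held for Mrpl49, at 15.1 and 16.5 TPM, whose neighbour Fau, which encodes a cytosolic ribosomal protein, had 183 and 188 TPM at 59 bases. Mrps12 had 22.3 TPM in each heart and Sars2, the mitochondrial seryl-tRNA synthetase that starts 172 bases away, 4.70 and 5.67 TPM. Levels were nearer in the pair of Mrpl54 (36.5 and 36.0 TPM) and Apba3 (42.4 and 37.8 TPM), 26 bases apart.

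Promoter windows from RefSeq (GRCm38.p6, the build of mm10, 250 bases before to 50 after the start) were found for 69 of the 78 members, with 75 windows. They were searched on both strands for short motifs. CCGGAAG, a core of ETS family sites, was in 34.7% of member windows, 17.8% of windows of protein-coding genes at 10 TPM or more and 11.6% of all 21263 windows. GCATGCGC, part of the site of NRF1, was in 10.7%, 5.32% and 3.52%. AAGATGGCG, a form of the YY1 site, was in 10.7%, 3.73% and 1.83%. The ETS motif was in 21.2% of OXPHOS and 36.8% of cytosolic ribosomal protein windows. For NRF1 these shares were 13.6% and 4.41%, and for YY1 10.6% and 7.35%. At least 1 of these 3 motifs was in 36 of 75 member windows, against 24.7% and 15.7%, and in 37.9% of OXPHOS and 48.5% of cytosolic ribosomal protein windows. GGGCGG went the other way relative to expressed genes, at 52.0% against 64.2%, and 46.2% of all windows. TATAAA was in 6.67%, 7.18% and 12.6%. CCAAT was in 40.0%, 37.5% and 38.2%, CACGTG in 9.33%, 10.1% and 7.84%, and TGACGTCA in 2.67%, 3.02% and 2.23%. Overlapping windows of a gene each counted, so CACGTG was in 7 member windows but in 5 of 69 member genes. ETS and YY1 matches overlapped no other match of these 3 motifs in the member windows, whereas NRF1 matches on both strands overlapped each other in Mrpl9, Mrpl32 and Mrpl39. Median GC content was 58.7% for members, 61.7% for genes at 10 TPM or more and 56.3% for all. Where members start close to another gene, the window also holds sequence before that gene. A match is a match of letters only, and binding was not measured.

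Windows from 100 bases before to 30 after the RefSeq start are shown for 5 members that span these cases, 5′ to 3′ on the gene's strand, with ETS, NRF1 and YY1 matches in capitals. Mrpl33 holds an NRF1 match on the other strand followed by an ETS match, Mrps18a an ETS and a YY1 match, Mrpl58 a pair of ETS matches, Mrpl51 a single one, and Mrpl30, the member with the highest level, none:
Mrpl33 (chr5:31613851-31613980, plus): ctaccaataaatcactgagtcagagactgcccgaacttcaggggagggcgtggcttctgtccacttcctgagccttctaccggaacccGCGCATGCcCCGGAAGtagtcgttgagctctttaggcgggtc
Mrps18a (chr17:46110904-46111033, plus): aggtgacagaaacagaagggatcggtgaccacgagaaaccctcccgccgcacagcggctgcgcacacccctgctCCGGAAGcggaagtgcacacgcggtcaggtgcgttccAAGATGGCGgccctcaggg
Mrpl58 (chr11:115403652-115403781, plus): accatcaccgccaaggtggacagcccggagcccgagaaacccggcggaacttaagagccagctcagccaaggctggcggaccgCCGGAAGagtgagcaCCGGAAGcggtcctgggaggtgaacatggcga
Mrpl51 (chr6:125192100-125192229, plus): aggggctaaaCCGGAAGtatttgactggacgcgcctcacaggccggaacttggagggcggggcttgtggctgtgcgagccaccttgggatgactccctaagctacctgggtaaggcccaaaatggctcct
Mrpl30 (chr1:37890377-37890506, plus): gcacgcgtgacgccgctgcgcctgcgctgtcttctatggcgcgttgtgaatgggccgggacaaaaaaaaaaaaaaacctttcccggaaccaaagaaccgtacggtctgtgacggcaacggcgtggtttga
In the member windows ETS matches (31) lay at a median of 17 bases before the start, NRF1 matches (14) at 49.5 before, and YY1 matches (8) at 18.5 after it. Among the 5 shown, Mrpl30 at 154 TPM (mean) held no match, while Mrpl51 at 114 TPM held an ETS match and Mrpl33 at 112 TPM an ETS and an NRF1 match.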

How the data were processed

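Total RNA-seq libraries of 2 hearts, 1 group, were used. The authors deposited gene and transcript tables in the column layout of RSEM, with expected counts, TPM and FPKM, and with each transcript's percent of its gene, per the file headers. A further transcript table per library, in the layout of kallisto, holds estimated counts and TPM as deposited (the second quantification). It was summed per gene. The assembly is mm10 and the annotation GENCODE M21, and the versions of the aligner and quantifiers were not given in the sources used here. Rows with numeric identifiers (26248, with 1 count in replicate 1 and 0 in replicate 2) were left out.

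Levels are TPM per library, and list levels the median over genes, given as mean ± SD of 2 libraries. Expected counts (42.13 M and 40.07 M in all, 99.8% on mouse genes in each) were rounded to whole numbers and scaled with TMM (edgeR 4.0.16). The median ratio uses genes with 50 or more summed counts. Ratios have exact Clopper-Pearson intervals, built to miss in 0.1% of cases, for counting error only, since reads carry no molecular identifiers here. Nothing beyond the labelled animal numbers shows separate animals, so spread may be partly technical. The ratio rule was tested on simulated data. DESeq2 1.42.0 size factors, other units, filters and transcript sets were alternatives. Shared sequence was counted as common 31-base stretches of GENCODE M21 transcripts. Python 3.11.15, pandas 2.3.3, numpy 2.4.6, scipy 1.17.1, matplotlib 3.10.9 and R 4.3.3 were used.

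Members and lists were chosen with earlier results of these data known. Named are the 8 highest and 6 lowest members, those past 25% between the hearts, up to 6 in each direction between quantifications, members picked for their roles or isoform shares, and the ends of other lists. Neighbour pairs, pseudogenes and promoter windows were chosen after their values were seen. Prorp and Fastkd4 were not matched, and of 2 gene models of Atp5o the higher was used. Protein sequences were not used here.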

Additional observations from a re-analysis of the deposited data

How the results depend on the processing

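Of 42 alternatives over 8 results, 29 were labelled unchanged. Levels and list ratios were judged by the SD between the hearts, and member counts by 1.5 times. The median ratio between the hearts was judged by the counting half-width of the member with the median count (0.128 log2). The number past the 25% limit had to stay equal. Several alternatives could not change a result. Leaving out 1 library always keeps a level or ratio within the SD of 2. Rescaled TPM and FPKM cancel in list ratios, and other count limits dropped or added no member. The tally is therefore no measure of robustness. No ratio changed sign. The members' median level was 29.8 TPM in the second quantification, 22.01 TPM over protein_coding transcripts only and 80.1 TPM when TPM was rescaled over nuclear protein-coding genes, a rescaling that raises every such gene. The log2 ratio of the large over the small subunit median was 0.026 in the second quantification and 0.22 over protein_coding transcripts only. That of the members over nuclear OXPHOS subunits was -4.03 in the second quantification, -3.73 over protein_coding transcripts and -2.99 on expected counts. Over cytosolic ribosomal proteins it was -2.61, -2.63 and -1.51 under the same changes. The number of members past the 25% limit between the hearts was 0 in the second quantification and 0 when Mrpl23 and Mrpl23-ps1 were counted together, an alternative chosen after seeing the data, against 1 as reported. Leaving out replicate 1 or 2 gave median levels of 28.9 and 29.1 TPM. No paired analysis was possible because there is 1 group. Depth limits the intervals most for Mrpl23, with 241 summed counts, and the other 77 members had 668 or more.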
